A study of Saccharomyces cerevisiae with 6 samples.

Results

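The H3K4me3 peaks of 7 genes that encode regulators of nitrogen catabolite repression in *Saccharomyces cerevisiae* were followed in the peak lists of WT and *jhd2∆* cells: *GLN3* (YER040W), *GAT1* (YFL021W), *DAL80* (YKR034W), *GZF3* (YJL110C), *URE2* (YNL229C), *DAL81* (YIR023W) and *DAL82* (YNL314W). The choice follows the known function of their products, and earlier results of these data were known when it was made. All 7 of the 7 were found in both lists, among 4628 genes in the WT list, 4868 in the *jhd2∆* list and 4526 in both. H3K4me3, trimethylated lysine 4 of histone H3, was read by ChIP-Seq, in which DNA bound by the marked histone is pulled down with an antibody and sequenced. Both genotypes were prototrophic derivatives of the laboratory strain BY4742, one carrying *JHD2* and the other with *JHD2*, the gene of the H3K4 demethylase, replaced by a hygromycin resistance marker. Both were grown to an optical density of 0.5 in YAR, a synthetic medium with ammonium as the nitrogen source and raffinose as the carbon source, in which the cells respire. There was 1 H3K4me3 library per genotype. According to the labels a sample held about 14000000 reads, single-end and 51 bp long. With no replicate of either library, the values below are described without p-values, and how much separate cultures of one genotype vary is not known from them.

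Nitrogen catabolite repression is the system by which yeast keeps the genes for poor nitrogen sources, such as proline, allantoin and GABA, low while a better source is at hand. Its core is a set of GATA factors, zinc-finger proteins that bind GATA sequences upstream of the target genes. Gln3 and Gat1 activate these targets, Dal80 and Gzf3 repress them from the same kind of site, and the prion-forming protein Ure2 holds Gln3 in the cytoplasm when nitrogen is plentiful. Dal81 and Dal82 act on narrower sets of genes, Dal82 in the response to allophanate and Dal81 more broadly, as in the response to GABA. H3K4me3 itself is laid down by Set1 over the 5′ part of transcribed genes.

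The labels were checked first with the deleted gene. *JHD2* had 1 WT peak, 503 bp broad, and 0 peaks in the *jhd2∆* list. Genes absent from a list are only those with no peak assigned to them by the authors, and 20.4% of the 6021 protein-coding genes in RefSeq were in neither list. For comparison with the 7 regulators, 73.1% of these coding genes were in both lists.

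The H3K4me3 peaks of the 7 genes differed more from gene to gene than between genotypes, where the largest difference was 107 bp. In WT they ran from 481 bp at *DAL80* to 1097 bp at *GAT1*, with a median of 763 bp, beside a median of 658 bp over all genes with a peak in both lists. In *jhd2∆* the same 2 genes marked the ends, at 565 and 1150 bp, and the median was 740 bp beside 679 bp. Every regulator had exactly 1 peak in each list, and the peaks of the 2 lists overlapped at each of the 7 genes, by between 93.3% and 100% of the WT peak. Coordinates are 1-based and copied from the lists, for which no build is named.

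**Figure D1:**
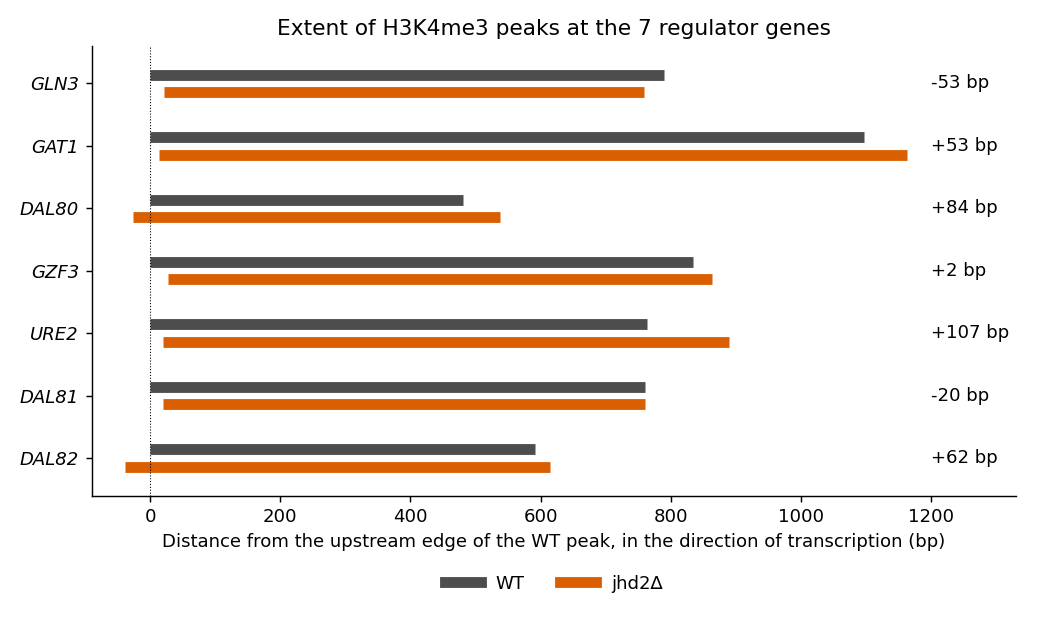
Extent of the H3K4me3 peak in WT (grey) and *jhd2∆* (orange) at the 7 regulator genes, in bp from the upstream edge of the WT peak in the direction of transcription, with the difference in breadth at the right. The *jhd2∆* bar starts further upstream only at *DAL80* and *DAL82*, and ends further upstream than the WT bar only at *GLN3*.

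The 2 GATA activators differed in opposite directions. *GLN3*, whose product is the GATA activator released from Ure2 when nitrogen is poor, had a WT peak of 790 bp on chromosome V, from 229640 to 230429, and a *jhd2∆* peak of 737 bp, from 229662 to 230398. The *jhd2∆* peak lay wholly inside the WT peak, so that *GLN3* was narrower by 53 bp, and only 5.17% of the 4526 genes had a more negative difference. *GAT1*, the other activator, carried the broadest peak of the 7. It covered 1097 bp of chromosome VI in WT, from 96059 to 97155, which was broader than the peak of 96.2% of genes in the WT list, and 1150 bp in *jhd2∆*, from 96072 to 97221. The difference of 53 bp at *GAT1* came from the downstream edge, which lay 66 bp further into the gene, while the upstream edge lay 13 bp further in.

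The 2 GATA repressors were not alike either. *DAL80*, a repressor whose own gene is a target of nitrogen catabolite repression, had the narrowest and lowest peak of the 7. In WT it spanned 481 bp of chromosome XI, from 506938 to 507418. The *jhd2∆* peak ran from 506911 to 507475 and was 565 bp broad, 84 bp more, with both edges further out. This was 17.5% of its WT breadth, the largest proportional difference of the 7. The authors assigned the *DAL80* peak in both lists to YKR033C as well, an open reading frame named on the opposite strand, so that the peak cannot be given to *DAL80* alone. *GZF3*, the second repressor, had almost the same breadth in both genotypes, 834 bp in WT (chromosome X, 210855 to 211688) and 836 bp in *jhd2∆* (210825 to 211660). Its upstream edge lay 28 bp further in and its downstream edge 30 bp further out, an arrangement of edges found at 62.5% of genes. The median downstream shift over all genes was 29 bp.

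*URE2*, which encodes the inhibitor of Gln3, showed the largest difference among the 7. The WT peak on chromosome XIV was 763 bp broad, from 219666 to 220428. In *jhd2∆* it reached 870 bp, from 219539 to 220408. The difference of 107 bp exceeded that of 87.1% of genes. It lay in the downstream edge, which was 127 bp further into the gene, a shift larger than at 89.4% of the 4521 genes whose strand can be read from the name. The upstream edge of *URE2* was 20 bp further in.

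The genes for the more specific activators, *DAL81* and *DAL82*, again differed from each other. *DAL81* had peaks of 760 bp in WT (chromosome IX, 399716 to 400475) and 740 bp in *jhd2∆* (399736 to 400475). Both ended on the same base downstream, and the difference of -20 bp was the upstream edge alone. *DAL82*, on chromosome XIV, had a WT peak of 591 bp from 44462 to 45052. Its *jhd2∆* peak of 653 bp ran from 44423 to 45075. It was broader by 62 bp with both edges further out, the upstream edge by 39 bp.

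Taken over the group, 5 of the 7 genes were broader in *jhd2∆* and 2, *GLN3* and *DAL81*, were narrower. Over all 4526 genes 63.2% were broader and 35.9% narrower, so the group's shares lie near those of the genome. The median difference was 53 bp over the 7 genes and 17 bp over all genes. That median rests on few peaks. When the lowest 20% of peaks by pileup were left out of each list, which removes *DAL80* and *URE2*, it was 2 bp over the remaining 5 regulators and 12 bp over 3438 genes. Without peaks assigned to several genes, which removes *DAL80*, it was 27.5 bp over 6 regulators and 16 bp over 4197 genes. At a limit of 100 bp, 1 regulator (*URE2*) was broader and 0 were narrower, beside 14.2% broader and 1.3% narrower among all genes. *URE2* passed this limit by a small margin. At 50 bp the corresponding numbers were 4 broader (*GAT1*, *DAL80*, *URE2* and *DAL82*) and 1 narrower (*GLN3*), beside 29.1% and 5.86%. At 200 bp both counts were 0, beside 3.62% and 0.464%.

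The edges showed 4 arrangements. The commonest of all genes, an upstream edge further in and a downstream edge further out, was seen at *GAT1*, *GZF3* and *URE2*, or 3 of the 7, and at 62.5% of all oriented genes. Both edges lay further out at *DAL80* and *DAL82*, an arrangement shared by 13.6% of genes. Outward upstream shifts of the size at *DAL80* (27 bp) or more were found at 4.2% of genes, and of the size at *DAL82* (39 bp) or more at 2.65%. The share for *DAL80* holds only if the peak is read on the strand of *DAL80*. For YKR033C, to which the same peak is assigned, the 27 bp edge is the downstream one. The other edge, 57 bp further out, is then the upstream one. Outward downstream shifts of any size were found at 77.4% of genes, but outward upstream shifts of 39 bp or more at only 2.65%. Read on either strand, the peak therefore has an uncommon upstream shift. *GLN3* was the 1 regulator with both edges further in, as at 17.4% of genes, and its downstream edge, 31 bp further in, lay below that of 95.2% of genes. *DAL81* moved at 1 edge only, the upstream one further in with the downstream one on the same base, as at 0.664% of genes. The downstream edge lay further out at 5 of the 7 regulators and at 77.4% of genes. The median downstream shift of the 7 was 30 bp, beside 29 bp for all genes, and the median upstream shift was -20 bp, beside -13 bp, where a negative value is an edge further in.

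**Figure D2:**
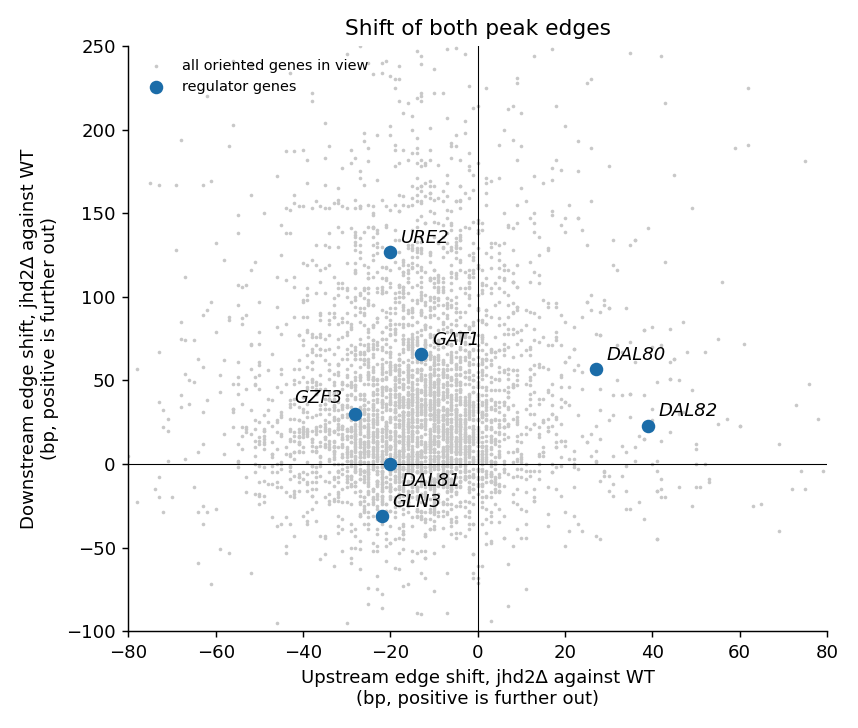
Shift of the upstream (x axis) and downstream (y axis) peak edge in *jhd2∆* against WT, in bp, positive where the edge lies further out. Grey points are single genes, drawn where they fall within the axes, and blue points the 7 regulators, of which *DAL80* (27 and 57 bp) and *DAL82* (39 and 23 bp) lie to the right of the upper left quadrant that holds most genes.

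The pileup, the height of read coverage that MACS2 gives for a peak, was ranked within each list only. The sources do not state how the pileup numbers of the lists are scaled to each other. The paper states that ChIP-Seq normalization makes total H3K4me3 equal between the genotypes, and that no external reference was added. By western blot it reports more bulk H3K4me3 in *jhd2∆* in YAR. By ChIP with PCR in place of sequencing it also reports a marked gain across *MRPL17*, *PMA1* and *YEF3*. These genes were chosen because their breadth in the ChIP-Seq data had not increased. From this the paper proposes that breadth reflects the gain only superficially. A lower pileup is therefore no measure of less H3K4me3. Pileup numbers were lower in the *jhd2∆* list at all 7 regulators, and also at 93.3% of oriented genes, with list medians of 301 in WT and 272 in *jhd2∆*. The ranks sorted the regulators into high and low peaks. *DAL81* had a WT pileup of 325 (rank 659 of 4628, rank 1 being the highest), *GLN3* 324 (rank 733), *GAT1* 317 (rank 1129) and *GZF3* 310 (rank 1638). The other regulators were below the list median, *DAL82* with 292 (rank 2889), *URE2* with 273 (rank 3738) and *DAL80* with 222 (rank 4480). Only 3.05% of genes in the WT list had a lower pileup than *DAL80*.

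In the *jhd2∆* list the same 4 regulators lay above the median and the same 3 below it. *GAT1*, with a pileup of 310, stood at rank 260 of 4868, above 94.2% of genes, and had been above 73.9% in WT. *GLN3* moved the other way, from above 83.0% of genes in WT to above 69.6% in *jhd2∆*, where its pileup was 285 (rank 1413). *GZF3* moved from above 62.7% to above 76.4% of genes, with 290 in *jhd2∆*. The places of the others differed by less than 5 percentage points, with *DAL81* at 301 (rank 511), *DAL82* at 262 (rank 3219), *URE2* at 247 (rank 4063) and *DAL80* at 220 (rank 4660). The 2 activators therefore changed places. The deposited lists carry no error for a pileup, and the middle of the list is crowded: the WT quartiles are 281 and 317, so that a few units of pileup there span many ranks.

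**Figure D3:**
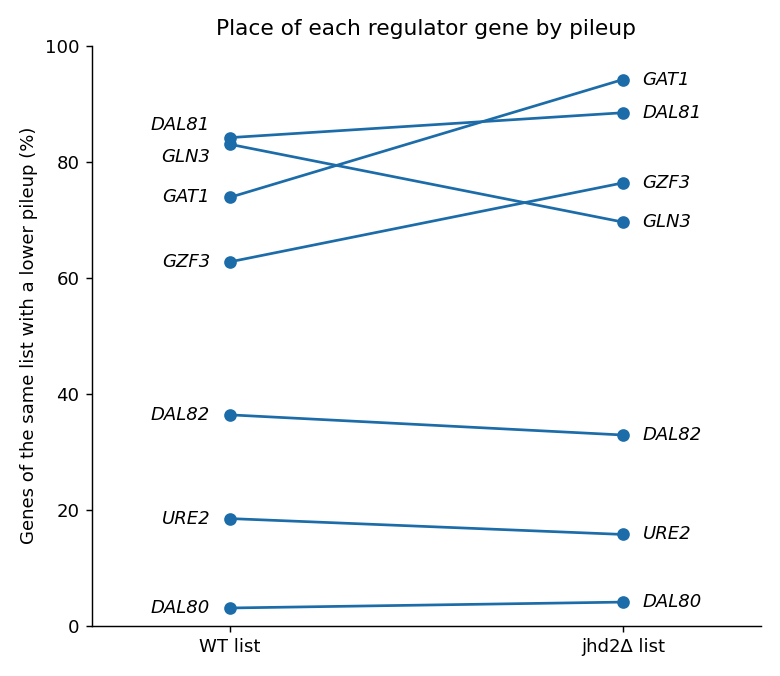
Percent of genes in the same list with a lower pileup, for each regulator in the WT list (left) and the *jhd2∆* list (right), joined by lines. *GAT1* goes from 73.9% to 94.2% and *GLN3* from 83.0% to 69.6%, while *DAL80* stays under 5% in both.

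The regulators with low WT peaks were those that broadened most, a trend also present over all genes, whose median difference went from 44.5 bp in the 20% with the lowest WT pileup to -2 bp in the 20% with the highest. The 3 regulators below the WT median pileup, *DAL80*, *URE2* and *DAL82*, differed by 84, 107 and 62 bp, and the 2 with the highest pileup, *DAL81* and *GLN3*, by -20 and -53 bp. Both quantities use the WT library, and genes are not replicates, so this is a description. Over all genes the shortest 20% had a median difference of -8 bp and the longest 20% one of 20 bp. The groups between them, from shorter to longer genes, had 16, 35 and 29 bp, so the median did not rise steadily with length. No regulator lay in the shortest 20% (up to 692 bp). Among the regulators the longest, *DAL81* (2912 bp) and *GLN3* (2192 bp), were narrower in *jhd2∆*, and the shortest, *URE2* (1064 bp), *DAL80* (809 bp) and *DAL82* (767 bp), were broader. Length and pileup move together in this group, and their parts in the difference were not tested.

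**Figure D4:**
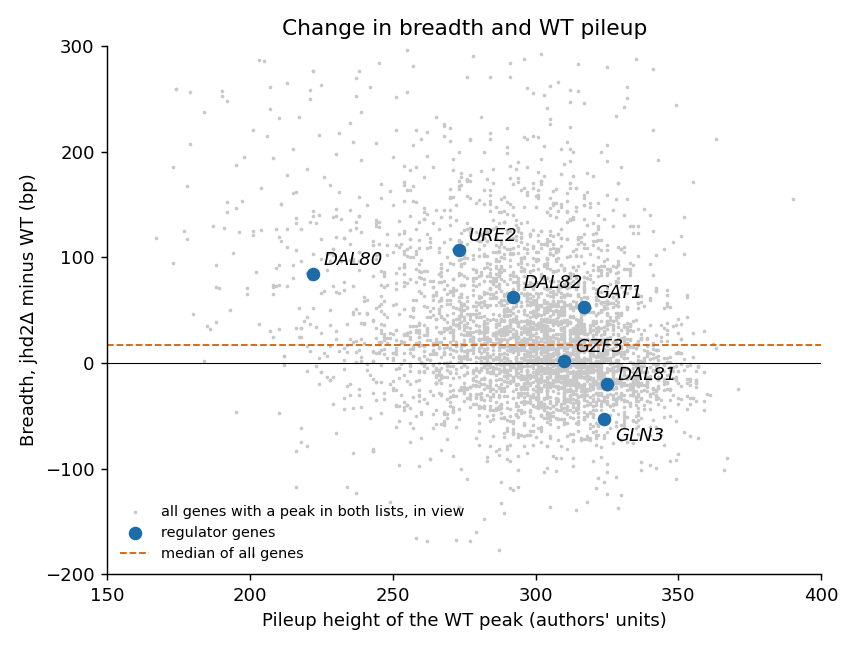
Difference in peak breadth (*jhd2∆* minus WT, bp) against the authors' pileup of the WT peak, for all genes with a peak in both lists that fall within the axes (grey) and the 7 regulators (blue). The dashed line is the median of all genes, 17 bp. *DAL80*, *URE2*, *DAL82* and *GAT1* lie above it and *GZF3*, *DAL81* and *GLN3* below it.

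The breadth was also set against the length of each gene. The WT peak equalled 77.1% of the gene length at *DAL82*, 71.7% at *URE2* and 71.6% at *GAT1*, and the *jhd2∆* peak 85.1%, 81.8% and 75.1%. At the long genes *GLN3* and *DAL81* these shares were 36.0% and 26.1% in WT and 33.6% and 25.4% in *jhd2∆*. The shares compare lengths only, since part of a peak can lie upstream of the gene.

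The regulators had different surroundings, described here by the nearest listed peak on either side. These neighbours were picked with their values in view. *DAL82* lies back to back with *ATP11*, which encodes an assembly factor of the mitochondrial ATP synthase, and the *ATP11* peak began 94 bp upstream of the *DAL82* peak in WT and 60 bp in *jhd2∆*. *DAL80* had near neighbours on both sides, with the *SPO14* peak 341 bp upstream in WT and 346 bp in *jhd2∆*. Downstream, a peak assigned to both *DID2* and YKR035C lay 453 bp away in WT and 406 bp in *jhd2∆*. Upstream of *URE2* the next peak, at YNL228W, was 284 bp away in WT and 295 bp in *jhd2∆*. On its downstream side the *ELA1* peak lay 899 bp away in WT and 780 bp in *jhd2∆*, so the broader *URE2* peak remained apart from the next one. The nearest listed WT peak was 1036 bp away at *GAT1*, 1365 bp at *GLN3*, with 1 unlisted call number between in each list, and 2414 bp at *GZF3*. Upstream of *DAL81* the nearest listed peak in *jhd2∆* lay at 1775 bp, with 1 call number of that list unlisted between them. It was assigned to both *MRS1*, a mitochondrial splicing factor gene, and YIR020C-B. In the WT list the next peak upstream was 14474 bp away, at *YAP5*, but the numbers of the original WT call skip 2 between them, so WT peaks left without a gene may lie there.

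The rest of the pathway was described through 3 lists drawn up from known roles. Of 18 genes that nitrogen catabolite repression acts on, 12 had a peak in both lists (66.7%) and 6 in neither (33.3%), beside 73.1% and 20.4% of all coding genes. The 6 without a listed peak were *DAL4*, *DAL5*, *DUR3*, *PUT4* and *UGA4*, all of which encode permeases (for allantoin, allantoate, urea, proline and GABA), and *DAL1*, the gene of allantoinase. Not every permease gene was without a peak, since *GAP1*, the general amino acid permease, and *MEP2*, an ammonium permease, had peaks of 953 and 1068 bp in WT. All 7 regulators and all 4 of the pathway-specific regulators *UGA3*, *PUT3*, *ARG80* and *ARG81* were in both lists. Absence from the lists is not a measurement of no H3K4me3, because the assignment of peaks to genes also decides which genes appear.

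Among the 12 target genes with both peaks, 10 were broader in *jhd2∆* and 2 narrower, with a median difference of 32.5 bp. By more than 100 bp, 3 were broader and 1, *GAP1*, was narrower. Over all genes 63.2% were broader, 35.9% narrower and 14.2% broader by more than 100 bp, with a median of 17 bp. *UGA1*, the gene of GABA transaminase, went from 516 to 1273 bp, its downstream edge 767 bp further out. The WT numbering skips 1 call between *UGA1* and the next listed peak and the *jhd2∆* numbering skips 0. *PUT1*, which encodes proline oxidase, went from 455 to 773 bp, and its WT pileup of 199 was higher than that of only 1.08% of genes. *DAL2*, the allantoicase gene, went from 848 to 956 bp. In the other direction *GAP1* narrowed from 953 to 817 bp, with the upstream edge 157 bp further in. *GDH2*, which encodes the NAD-dependent glutamate dehydrogenase, counts as the other narrower target only through the choice of peak. It had 2 WT peaks on chromosome IV, and the broader one, 669 bp from 72752 to 73420, overlapped the *jhd2∆* peak (603 bp, from 73532 to 74134) by 0 bp. The higher WT peak, 598 bp from 73542 to 74139, gave a difference of 5 bp, and with it 11 targets were broader and 1 narrower, an alternative chosen after seeing the data. The differences ran from -136 to 757 bp among the targets and from -53 to 107 bp among the regulators, beside -559 to 998 bp over all genes. The wider range of the targets lay in their outermost genes. Their quartiles were 7 and 62.25 bp, beside -9 and 73 bp for the regulators and -14 and 60 bp for all genes.

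The other GATA-finger genes of yeast had a peak in both lists at 2 of 6 genes, beside 4 of 4 for the GATA factors of nitrogen regulation and 73.1% of all coding genes, and these shares were not tested against each other. *GAT2* had the broadest peak of this list, 1133 bp in WT and 1178 bp in *jhd2∆*, close to that of *GAT1*. *ASH1*, the daughter-cell repressor of mating-type switching, went from 642 to 679 bp. *SRD1* was in the *jhd2∆* list only, with a peak of 376 bp and a pileup of 247, and *GAT3*, *GAT4* and *ECM23* were in neither. The pathway-specific regulators differed by 60 bp at *ARG81* and 52 bp at *UGA3*, the activator of GABA use, and by -7 bp at *PUT3*, the proline-responsive activator, and -16 bp at *ARG80*. Their median was 22.5 bp.

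**Figure D5:**
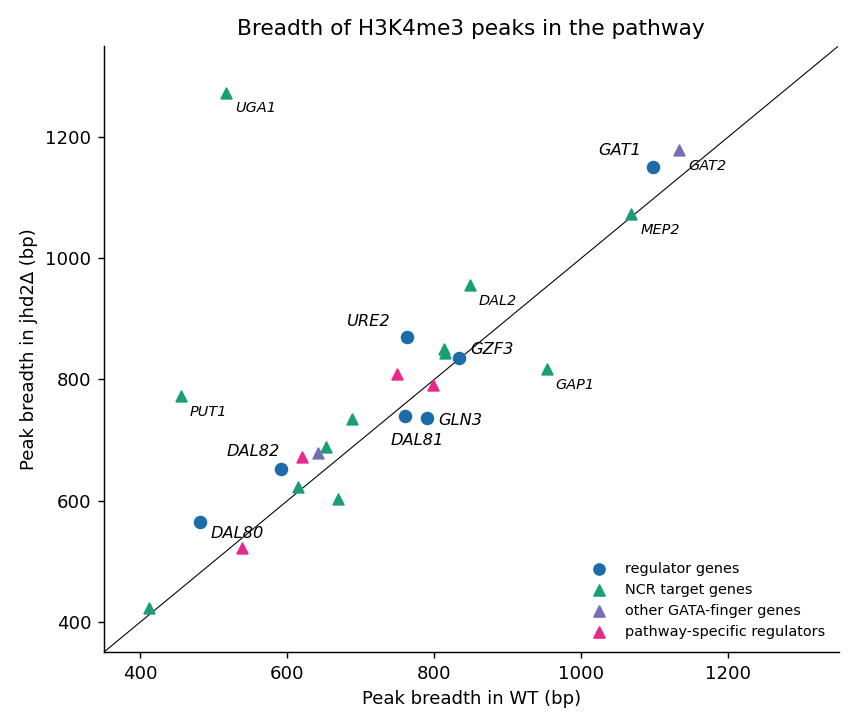
Breadth of the H3K4me3 peak in WT (x axis, bp) and *jhd2∆* (y axis, bp) for the 7 regulators (circles) and for genes of the 3 pathway lists with a peak in both peak lists (triangles), with the line of equal breadth. The regulators lie within 107 bp of the line, and the target genes *UGA1* (516 and 1273 bp) and *PUT1* (455 and 773 bp) lie far above it.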

How the data were processed

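Reads of 51 bp were aligned by the authors with Bowtie2 2.2.3 to the iGenomes yeast reference (build not given in the sources used here). They called H3K4me3 peaks with MACS2, broad option off, in 1 library per genotype, and gave a peak to a gene where it overlapped the start of the coding region. Per the file headers, the lists hold peak positions, breadths (bp), gene lengths (WT list only) and pileup, which is a coverage signal made by the authors' MACS2 run and not stated to be scaled between lists. The control library used for calling is not named. Pan-H3 and whole cell lysate libraries were not analysed here. Sonicated fragments limit how finely an edge can be placed, and each library's depth and enrichment can also move its edges.

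Peaks were paired by gene, taking the widest where a gene had more than 1. Edges were oriented by the strand letter of the systematic name, and shifts counted as positive outward. Percentiles give the share of genes with a strictly lower value. Gene symbols were looked up in RefSeq's R64 table (4473 WT and 4725 *jhd2∆* names matched), which gave names and neighbours but no coordinate. The members, the pathway lists and the 100 bp limit were chosen with earlier results of these data known. Named were the 7 members, *JHD2*, and from each pathway list the genes in only 1 peak list and the 2 largest and 2 smallest differences in breadth. *DAL2*, *MEP2*, the genes in neither list and the neighbours were named after their values were seen. The edge computation was tested on simulated lists. Tools were numpy 2.4.6, scipy 1.17.1 and pandas 2.3.3 under Python 3.11.15, with matplotlib 3.10.9 for plots.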

Additional observations from a re-analysis of the deposited data

How the results depend on the processing

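Of 87 values recomputed under alternative choices, 72 were unchanged, 15 moved and 0 changed sign. The counts, percents and percentiles among them could not change sign, so this tally says little about robustness. Counts were taken as unchanged within 1.5 times, percents within their 95% Wilson interval, and distances only if identical. The 21 recomputed differences of single regulators were all unchanged, which is no test, since each has 1 peak per list. The regulators' medians with the highest peak or the span of all peaks were fixed for the same reason. The overlap limits removed none of the 7 regulators, so they too left the values as they were. At a limit of 50 bp on breadth, 4 regulators were broader, 1 narrower and 29.1% of all genes broader, with 2 of the pathway-specific regulators broader. At 200 bp, 0 regulators and 3.62% of genes were broader. When the lowest 20% of peaks by pileup were left out (below 275 in WT and 251 in *jhd2∆*), 5 regulators remained, 0 were broader by more than 100 bp beside 10.6% of genes, their median difference was 2 bp and their median downstream shift 23 bp, and 1 other GATA-finger gene had a peak in both lists. Without peaks assigned to several genes, the median difference was 27.5 bp and the downstream shift 26.5 bp. Set against genes in both lists only, *DAL80* and *URE2* were above 3.03% and 14.6% of *jhd2∆* pileups in place of 4.07% and 15.7%. No paired analysis was possible because there was a single H3K4me3 library of each genotype, and no label ties the pair to a common culture day or batch. The lists hold no read counts, so no interval from depth can be given.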
